A study of Homo sapiens with 18 samples.

Results

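The 10 genes described here belong to the amino acid arm of the integrated stress response and to the serine synthesis pathway that it feeds: *ATF4*, *DDIT3*, *TRIB3*, *SESN2*, *CHAC1*, *PHGDH*, *PSAT1*, *PSPH*, *SHMT2* and *ASNS*. They were taken by symbol from a table of 40266 gene symbols, all 10 were found, and all 10 were among the 16093 genes tested, those with at least 1 TPM (the transcript abundance unit of these data, scaled for transcript length and library total) in at least 3 of the 18 libraries. The libraries came from 2 pancreatic ductal adenocarcinoma cell lines, Panc1 (from a primary tumor, used as a mesenchymal-like model) and Panc89 (from a lymph node metastasis, used as an epithelial model). Each line was sequenced as untreated parental cells, as Holoclone cells (compact colonies, the cancer stem cell variant) and as Paraclone cells (scattered colonies, the variant poor in stem cells), giving 6 groups of 3 replicates. Each Holoclone or Paraclone variant is 1 line grown from a single cell, and the 3 replicates are passages of it, so every p-value below measures the spread between passages and not between clones. All groups were cultured without treatment in RPMI medium, which contains serine and asparagine, with serum, L-glutamine and pyruvate added.

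In the integrated stress response, kinases that sense missing amino acids, misfolded protein, double-stranded RNA or low heme phosphorylate the translation factor eIF2. General translation then slows, while the *ATF4* mRNA, held back by upstream reading frames, is translated better, so that the activity of this transcription factor can change with little change of its mRNA. ATF4 protein pairs with C/EBP family factors and raises genes for amino acid uptake and synthesis, tRNA charging and, under lasting stress, cell death, and pancreatic cancer cells, which often grow where amino acids are scarce, are known to depend on it.

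The element that ATF4 and C/EBP dimers bind is written TGATGNAA, with N for any base. A RefSeq window of 250 bases before to 50 after the start (GRCh38.p14) was available for 8 members, *PSPH* and *SHMT2* being the others, and these letters stood on either strand in the windows of 2 of them. The same letters stood in 4.46% of the 27305 genes with such a window. Both matching stretches, in *ASNS* and *CHAC1*, are shown because they hold the match. They were not picked by the size of a clone difference. *PSAT1*, whose clone difference in Panc89 was the largest of the members (below), had no match in its window. Each stretch is 30 bases long, in the direction of the gene, with the matching letters in capitals.
ASNS, chr7:97872458-97872487, minus strand, first matching base 68 before the start: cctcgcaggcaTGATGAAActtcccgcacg
CHAC1, chr15:40953251-40953280, plus strand, element in reverse orientation, first matching base 209 before the start: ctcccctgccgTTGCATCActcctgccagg
Both stretches overlap an annotated exon of the same gene. A match is a description of letters, and binding was not measured.

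All 10 genes were expressed in every library, and their mean levels exceeded those of 82.6% (*SESN2*) to 99.0% (*ATF4*) of the genes tested. *ATF4* varied least, from 403 TPM in parental Panc1 replicate 2 to 1188 TPM in Panc89 Holoclone replicate 3, a ratio of 2.95. *SESN2*, *CHAC1*, *SHMT2* and *ASNS* varied over 12.7-, 12.6-, 11.8- and 11.3-fold ranges. Group means below are given in TPM ± SD (n = 3), and differences are log2 fold changes on the log2(TPM + 1) scale with their standard errors, tested with limma over all genes and called at a Benjamini-Hochberg adjusted p under 0.05. In bulk samples, fewer cells that express a gene and less RNA per cell cannot be told apart.

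**Figure D1:**
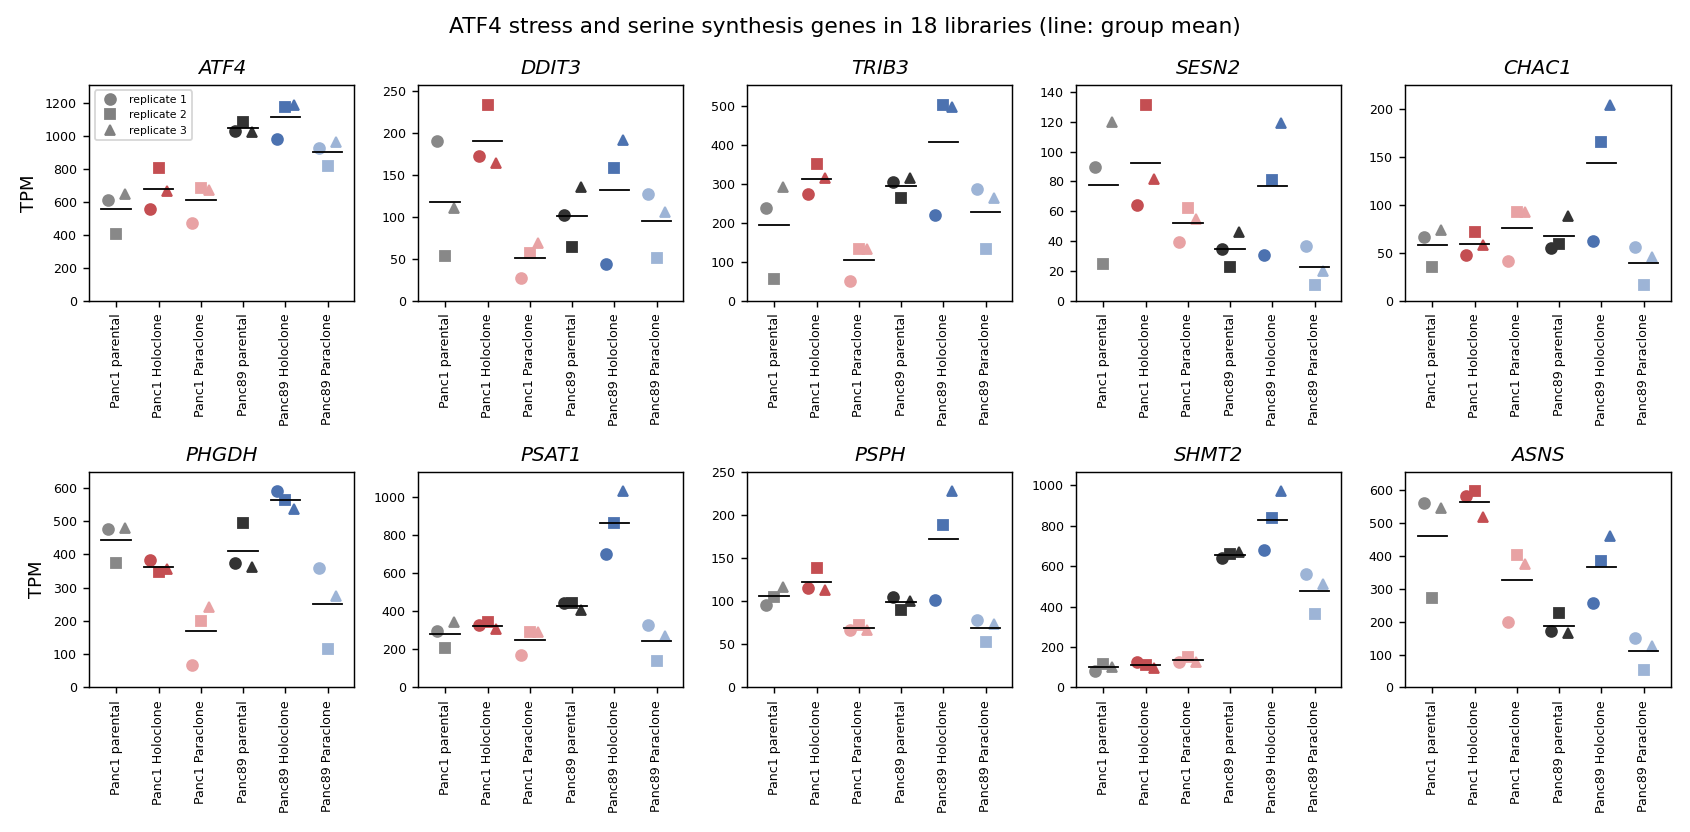
Level of each gene in TPM (vertical axis from 0, scale differing between panels) in the 18 libraries; each point is 1 library, its shape the replicate, and each line the group mean. *SHMT2* stands higher in every Panc89 library than in every Panc1 library, and in several groups 1 replicate lies far below the other two for most of the genes.

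The labels were checked against keratins and lineage markers. *KRT8*, *KRT18* and *KRT19* were at 183 TPM or more in every library, *VIM* reached 5044 TPM in Panc1, and the E-cadherin gene *CDH1* reached 107 TPM in Panc89. Of the 6 epithelial markers, which also held *KRT7* and *EPCAM*, 4 were called higher and 1 lower in parental Panc89 than in parental Panc1. Of 3 mesenchymal-like markers, *VIM*, *CDH2* and *ZEB1*, 2 were called lower there and 1 was not called. Over all genes, 27.5% were called higher and 38.5% lower. Of 13 markers of other cell types, 6 passed the filter on low values, and *PTPRC*, *VWF*, *DCN* and *CPA1* stayed under 1 TPM in every library. *LUM*, *PDGFRB* and *PRSS1* reached at most 1.15, 1.13 and 1.36 TPM, whereas the endothelial genes *PECAM1* and *CDH5* reached 64.7 and 5.07 TPM, *PECAM1* averaging 60.1 TPM in parental Panc89. The mesothelial genes *UPK3B*, *WT1* and *CALB2* reached 172, 49.9 and 11.9 TPM, and the leukocyte gene *CD68* reached 151 TPM. The summed level of these 13 genes was lower in the Holoclone than in the Paraclone libraries, at 67.3 to 81.1 against 176 to 202 TPM in Panc1 and 39.1 to 54.3 against 171 to 223 TPM in Panc89, mostly from *CD68* and *WT1* in Panc1 and from *UPK3B* and *CD68* in Panc89. Their part in the clone differences below was not tested.

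Among the 10 genes, the largest difference between the parental lines lay in *SHMT2*, the mitochondrial enzyme that splits serine into glycine and a one-carbon unit. It was at 82.0, 116 and 100.5 TPM in parental Panc1 and at 638, 660 and 669 TPM in parental Panc89. The groups were far apart, and the fold change was 2.72 ± 0.18 on the log2 scale, or 6.59-fold (limma, adjusted p = 1.73e-09). The cytosolic counterpart *SHMT1* was much lower in all 6 groups, with group means of 8.55 to 21.5 TPM.

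*ATF4* itself was also higher in parental Panc89. Its levels were 612, 403 and 643 TPM in parental Panc1 and 1028, 1082 and 1023 TPM in parental Panc89, with no overlap, and the log2 fold change was 0.95 ± 0.19 (limma, adjusted p = 0.000318). In contrast, *ASNS*, the asparagine synthetase and a classical ATF4 target, was lower in parental Panc89, at 172, 225 and 166 TPM against 562, 273 and 545 TPM in parental Panc1 (log2 fold change -1.23 ± 0.37, limma, adjusted p = 0.00888). This call was lost with median-of-ratios scaling (log2 fold change -0.98, adjusted p = 0.0502), while the *SHMT2* and *ATF4* calls were kept under both other scalings. *PSAT1*, the aminotransferase of serine synthesis, did not overlap either, at 206 to 343 TPM in parental Panc1 and 404 to 442 TPM in parental Panc89, but did not pass the test (0.64 ± 0.28, adjusted p = 0.0557); under upper quartile and median-of-ratios scaling it did (adjusted p = 0.0375 and 0.0251). 

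Thus 2 of the 10 genes rose and 1 fell in parental Panc89, beside 27.5% of all genes called higher and 38.5% called lower in this comparison. The libraries did not overlap for 4 members, against 73.3% of all genes, a smaller share. The median log2 fold change was 0.08 over the members and -0.18 over all genes; both other scalings brought the median of all genes to between -0.04 and 0.02. *PHGDH*, the enzyme of the first and committed step of serine synthesis, had close means in both parental lines (443 ± 60.7 and 410 ± 72.8 TPM), with a 95% interval of the log2 difference from -0.98 to 0.75.

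For *PSPH*, the phosphatase of the last step, the comparison between lines was limited by a copy. *PSPHP1*, an unprocessed pseudogene at chr7:55764797-55773288 on GRCh38, close to *PSPH* at chr7:56011051-56051604, was listed at 67.5 to 74.9 TPM in parental Panc1 and at 0 in all parental Panc89 libraries. *PSPH* alone was at 95.8 to 116 TPM in parental Panc1 and 90.1 to 105 TPM in parental Panc89, whereas *PSPH* and *PSPHP1* together were at 165 to 191 TPM and 90.1 to 105 TPM. How reads were divided between them is not recoverable from TPM values, so the level of *PSPH* in Panc1 is uncertain. *ASNS* also has a pseudogene, *ASNSP1*, with group means of 4.41 to 21.6 TPM in Panc89 and under 0.2 TPM in Panc1, and adding it left the *ASNS* groups separated in the same direction (200.6 ± 29.8 against 460.3 ± 162 TPM).

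**Figure D2:**
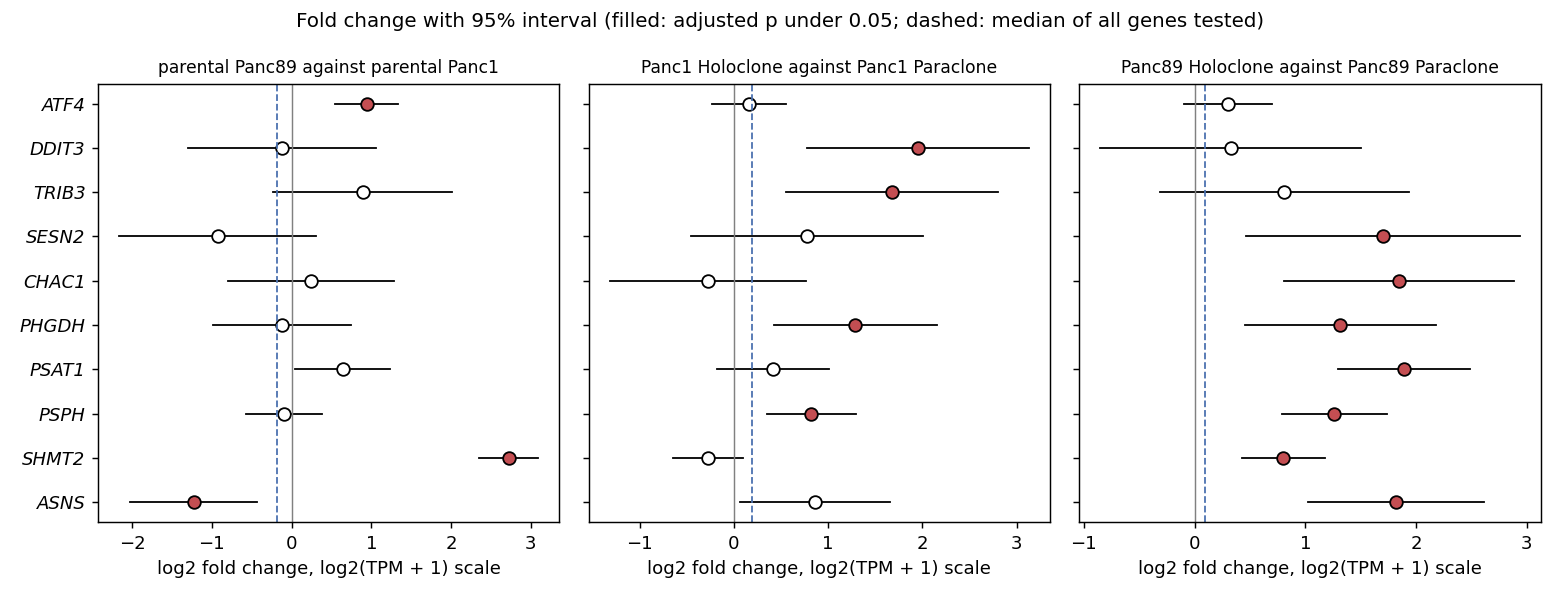
Log2 fold change (horizontal axis) of each gene in 3 comparisons with its 95% interval from limma; filled points passed an adjusted p under 0.05 and the dashed line is the median of all genes tested. In Panc89 all 10 points lie right of 0 in the Holoclone against Paraclone comparison and 7 are filled, while in Panc1 4 are filled.

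The comparison of Holoclone with Paraclone cells asked how the stem cell variant differed from its stem-cell-poor counterpart in each line. In Panc89, 7 of the 10 genes were higher in Holoclone cells and none was lower, where 22.4% of all genes were called higher and 13.3% lower. All 10 differences were positive, with a median of 1.29 against 0.09 over all genes, and the libraries did not overlap for 7 members, against 40.8% of all genes. The whole serine synthesis route was among the 7, together with *ASNS*, *CHAC1* and *SESN2*, whereas *ATF4*, *DDIT3* and *TRIB3* did not pass the test.

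Within the serine pathway, *PSAT1* changed most. It was at 702, 862 and 1029 TPM in Panc89 Holoclone cells and at 325, 137 and 269 TPM in Panc89 Paraclone cells, a log2 fold change of 1.89 ± 0.28, or 3.72-fold (limma, adjusted p = 8.12e-05). *PHGDH* was at 589, 562 and 537 TPM against 359, 116 and 274 TPM (1.32 ± 0.41, adjusted p = 0.0190). Holoclone libraries were close to each other for *PHGDH*, and the Paraclone libraries spread over a 3.09-fold range.

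*PSPH* was at 101.2, 188 and 227 TPM in Panc89 Holoclone cells and at 77.9, 53.2 and 73.8 TPM in Panc89 Paraclone cells (1.26 ± 0.22, limma, adjusted p = 0.000387), with *PSPHP1* at or near 0 in both. *SHMT2*, which uses the serine produced, was at 679, 839 and 970 TPM against 559, 364 and 513 TPM (0.80 ± 0.18, adjusted p = 0.00224). All 4 enzymes were thus higher in every Holoclone library than in every Paraclone library of Panc89.

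*ASNS* was at 257, 384 and 461 TPM in Panc89 Holoclone and 152, 52.8 and 126 TPM in Panc89 Paraclone cells (1.82 ± 0.37, limma, adjusted p = 0.00132). *CHAC1*, which encodes a glutathione-degrading enzyme induced late in the stress response, was at 61.7, 166 and 204 TPM against 56.4, 16.2 and 46.0 TPM (1.84 ± 0.49, limma, adjusted p = 0.00782). Its groups barely separated, since Holoclone replicate 1 lay just above Paraclone replicate 1. For *SESN2*, a stress sensor that restrains mTORC1, the groups overlapped, at 30.6, 80.7 and 119 TPM against 36.5, 10.4 and 20.2 TPM (1.70 ± 0.58, adjusted p = 0.0316).

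The remaining members were not called in Panc89. *ATF4* was at 979.5, 1172 and 1188 TPM in Panc89 Holoclone and at 927, 814 and 964 TPM in Panc89 Paraclone cells, not overlapping but by little (0.30 ± 0.19, adjusted p = 0.228, limma). *DDIT3*, which encodes the pro-apoptotic factor CHOP, overlapped throughout, at 44.2, 158 and 191 TPM against 127, 50.3 and 106 TPM (0.33 ± 0.55, limma, adjusted p = 0.698). So did *TRIB3*, the pseudokinase that feeds back on ATF4, at 219, 504 and 496 TPM against 288, 134 and 263 TPM (0.81 ± 0.53, adjusted p = 0.260).

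*PSAT1*, *PSPH*, *ASNS*, *CHAC1* and *SHMT2* kept their calls whichever Panc89 library was left out. *PHGDH* lost its call without Paraclone replicate 2 (log2 fold change 0.84, adjusted p = 0.0861), and *SESN2* lost it without Holoclone replicate 2 (1.57, 0.0943), Holoclone replicate 3 (1.29, 0.138), Paraclone replicate 2 (1.27, 0.116) or Paraclone replicate 3 (1.71, 0.0712), and under both other scalings (adjusted p = 0.0522 and 0.0585). The *SESN2* call was also lost with no filter on low values and with the replicate block. With only the 2 compared groups in the fit, 3 genes remained called: *ASNS*, *PSAT1* and *PSPH*.

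In Panc1, 4 of the 10 genes were higher in Holoclone cells and none lower, beside 27.4% of all genes called higher and 9.97% lower. These were *DDIT3*, *TRIB3*, *PHGDH* and *PSPH*. The median was 0.80 over the members and 0.19 over all genes, and the libraries did not overlap for 7 members, against 51.3% of all genes.

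*DDIT3* was at 172, 233 and 164 TPM in Panc1 Holoclone cells and at 27.4, 56.8 and 69.2 TPM in Panc1 Paraclone cells, a log2 fold change of 1.95 ± 0.55, or 3.87-fold (limma, adjusted p = 0.0112). *TRIB3* was at 273, 350 and 316 TPM against 51.3, 134 and 132 TPM (1.67 ± 0.53, adjusted p = 0.0204). Every Holoclone library exceeded every Paraclone library more than 2-fold for both genes. The *DDIT3* locus (chr12:57516588-57521737) overlaps *MARS1* and *MBD6* on the opposite strand and *MIR616* on its own strand, which was listed at up to 145 TPM, and how its reads were divided is not known.

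*PHGDH* was at 382, 348 and 355 TPM in Panc1 Holoclone and 65.9, 200 and 243 TPM in Panc1 Paraclone cells (1.29 ± 0.41, limma, adjusted p = 0.0202). *PSPH* was at 115, 138 and 113 TPM against 66.2, 71.8 and 67.0 TPM (0.82 ± 0.22, limma, adjusted p = 0.00855), and *PSPHP1* was lower in Paraclone cells as well, with group means of 58.7 and 43.7 TPM. The other pathway members were closer together. *PSAT1* was at 326, 343 and 304 TPM against 170, 290 and 289 TPM (0.42 ± 0.28, limma, adjusted p = 0.273), *SHMT2* at 127, 111 and 93.6 TPM against 125.5, 151 and 124.9 TPM (-0.28 ± 0.18, adjusted p = 0.244), and *ASNS* at 582, 597 and 518 TPM against 201, 402 and 375 TPM (0.86 ± 0.37, adjusted p = 0.0858).

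*CHAC1* (47.8, 71.2 and 57.8 TPM in Panc1 Holoclone, 41.5, 91.9 and 92.7 TPM in Panc1 Paraclone cells) and *ATF4* (557, 804 and 666 TPM against 468, 681 and 672 TPM) overlapped between the clones. The small positive *ATF4* difference (0.16 ± 0.19, not called) turned negative under both other scalings. *SESN2* was at 64.2, 132 and 81.4 TPM against 39.4, 61.9 and 54.8 TPM, without overlap but not called (0.78 ± 0.58, limma, adjusted p = 0.326).

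The Panc1 calls rested on few libraries. Without Paraclone replicate 1 only *PSPH* was called, *DDIT3* being at 1.57 (adjusted p = 0.0545), *TRIB3* at 1.22 (0.0995) and *PHGDH* at 0.71 (0.101). *TRIB3* was also lost without Holoclone replicate 2 (1.59, 0.0599) or 3 (1.66, 0.0529), and *PHGDH* without Holoclone replicate 1 (1.25, 0.0555). Under upper quartile or median-of-ratios scaling, which took the median of all genes from 0.19 to 0.01 and 0, only *DDIT3* remained called.

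The change between the clones differed between the lines for 3 genes, in each case more positive in Panc89, beside 14.8% of all genes called more positive there. *PSAT1* differed by 1.48 ± 0.40 (limma interaction term, adjusted p = 0.00870), *SHMT2* by 1.08 ± 0.25 (adjusted p = 0.00334) and *CHAC1* by 2.12 ± 0.69 (adjusted p = 0.0259). The first 2 held whichever library was left out. The *CHAC1* call was lost, with log2 differences of 1.59 to 1.98, on leaving out Panc1 Holoclone replicate 1 (adjusted p = 0.0578), Panc1 Paraclone replicate 2 (0.0637) or 3 (0.0612), Panc89 Holoclone replicate 2 (0.0635) or 3 (0.0677), or Panc89 Paraclone replicate 2 (0.0585). With no filter on low values the *CHAC1* call was lost as well.

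For *DDIT3* the difference ran the other way (-1.63 ± 0.78, adjusted p = 0.122, limma), so its call in Panc1 and not in Panc89 does not establish that the lines differ. *PHGDH* changed by nearly the same amount in both lines, 1.29 and 1.32, with a 95% interval of the difference between -1.19 and 1.25. *PSPH*, *ASNS*, *SESN2*, *TRIB3* and *ATF4* differed by 0.44, 0.96, 0.92, -0.86 and 0.14, none of which passed the test.

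The clones were next set beside the parental cells of their line, which serve as shared controls of both clones. In Panc1 Holoclone cells no member was called against parental cells (limma), and none had an unadjusted p under 0.05. Of all genes, 10.9% were called in either direction. The libraries overlapped for all 10 members, while they did not overlap for 30.3% of all genes. In Panc1 Paraclone cells, *PHGDH* fell by 1.57 ± 0.41 on the log2 scale from 443 to 169 TPM (adjusted p = 0.00907), and *PSPH* fell by 0.62 ± 0.22 (adjusted p = 0.0487), where 21.3% of all genes were called lower. The *PHGDH* call was kept whichever of the 6 libraries was left out, and was lost with only the 2 compared groups in the fit (adjusted p = 0.0808). Under upper quartile and median-of-ratios scaling *PSPH* was lost (adjusted p = 0.258 and 0.343) and *SHMT2* was called higher, so that the 2 calls were then *PHGDH* lower and *SHMT2* higher. The *PSPH* call was also lost on leaving out each of them in turn: parental replicate 1 (adjusted p = 0.0716), 2 (0.0928) or 3 (0.138), or Paraclone replicate 1 (0.101), 2 (0.0901) or 3 (0.110).

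Panc89 Holoclone cells stood above parental Panc89 for all 10 genes in the mean, with *PSAT1* (0.99 ± 0.28, limma, adjusted p = 0.0167) and *PSPH* (0.72 ± 0.22, adjusted p = 0.0266) called, beside 16.1% of all genes called higher. Panc89 Paraclone cells stood below parental Panc89 for all 10, with *PSAT1* called (-0.90 ± 0.28, adjusted p = 0.0332), beside 10% of all genes called lower. *PSAT1* was therefore ordered Holoclone, parental, Paraclone in Panc89, at 864, 429 and 244 TPM, without overlap between neighbours. None of these calls held throughout. *PSAT1* in Holoclone cells was lost without parental replicate 3 (adjusted p = 0.0554) or Holoclone replicate 3 (0.0712); *PSPH* was kept only when Holoclone replicate 1 was left out, with adjusted p of 0.0501, 0.0882 and 0.0615 without parental replicates 1, 2 and 3 and 0.104 and 0.137 without Holoclone replicates 2 and 3. *PSAT1* in Paraclone cells was lost without parental replicate 1 (0.0927), 2 (0.0790) or 3 (0.0722) or Paraclone replicate 2 (0.114).

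Across all 6 groups, *PHGDH* and *PSAT1* were highest in Panc89 Holoclone cells, whose libraries did not overlap with the next group in the order, and *SHMT2* fell into 3 separated Panc89 steps above the Panc1 groups. Within Panc1, *SHMT2* overlapped between neighbours in the order but not between Paraclone (125.5, 151 and 124.9 TPM) and parental cells (82.0, 116 and 100.5 TPM). *ATF4* was higher in every Panc89 library than in every Panc1 library, the lowest values in Panc89 being those of Paraclone cells. *DDIT3*, *TRIB3*, *SESN2* and *CHAC1* gave orders in which each group overlapped with its neighbour, so that the rank of neighbours by mean carries little information. Groups further apart could still be separated, as Panc1 Holoclone and Paraclone cells were for *DDIT3* and *TRIB3*.

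Replicates of a group spread widely for several members. The SD within groups was 0.76 for *DDIT3*, 0.72 for *TRIB3*, 0.79 for *SESN2* and 0.67 for *CHAC1* on the log2 scale, larger than that of 97.7 to 98.5% of genes of similar level, whose median SD was 0.19 to 0.20. *PHGDH*, *ASNS* and *PSAT1* followed at 0.55, 0.51 and 0.38, while *PSPH*, *ATF4* and *SHMT2* were the steadiest, at 0.29, 0.24 and 0.23.

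In 4 of the 6 groups, 1 library carried the lowest value of most members. In parental Panc1 replicate 2, 8 of 10 genes were the lowest of the 3 replicates, with a mean deviation from the group mean of -0.60 on the log2 scale. *TRIB3* was at 56.1 TPM there against 237 and 293 TPM in the other replicates, and *SESN2* at 24.4 against 89.7 and 120 TPM. The exceptions were *SHMT2*, which was highest in that library, and *PSPH*, which lay between the other replicates.

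The same held in Panc1 Paraclone replicate 1 for 9 of 10 genes (mean deviation -0.56), in Panc89 Holoclone replicate 1 for 9 of 10 (-0.61) and in Panc89 Paraclone replicate 2 for 10 of 10 (-0.69). Of all genes tested, 35.7%, 35.6%, 24.3% and 31.4% were lowest in these 4 libraries, in the same order, and the median deviation of all genes was between 0.01 and 0.11. In Panc89 Holoclone replicate 1 the stress genes were low, *DDIT3* at 44.2 TPM against 158 and 191 TPM, while *PHGDH* was the highest of the 3. No comparable library was seen in parental Panc89, where mean deviations were -0.09 to 0.11, or in Panc1 Holoclone cells, where they were -0.10 to 0.19.

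**Figure D3:**
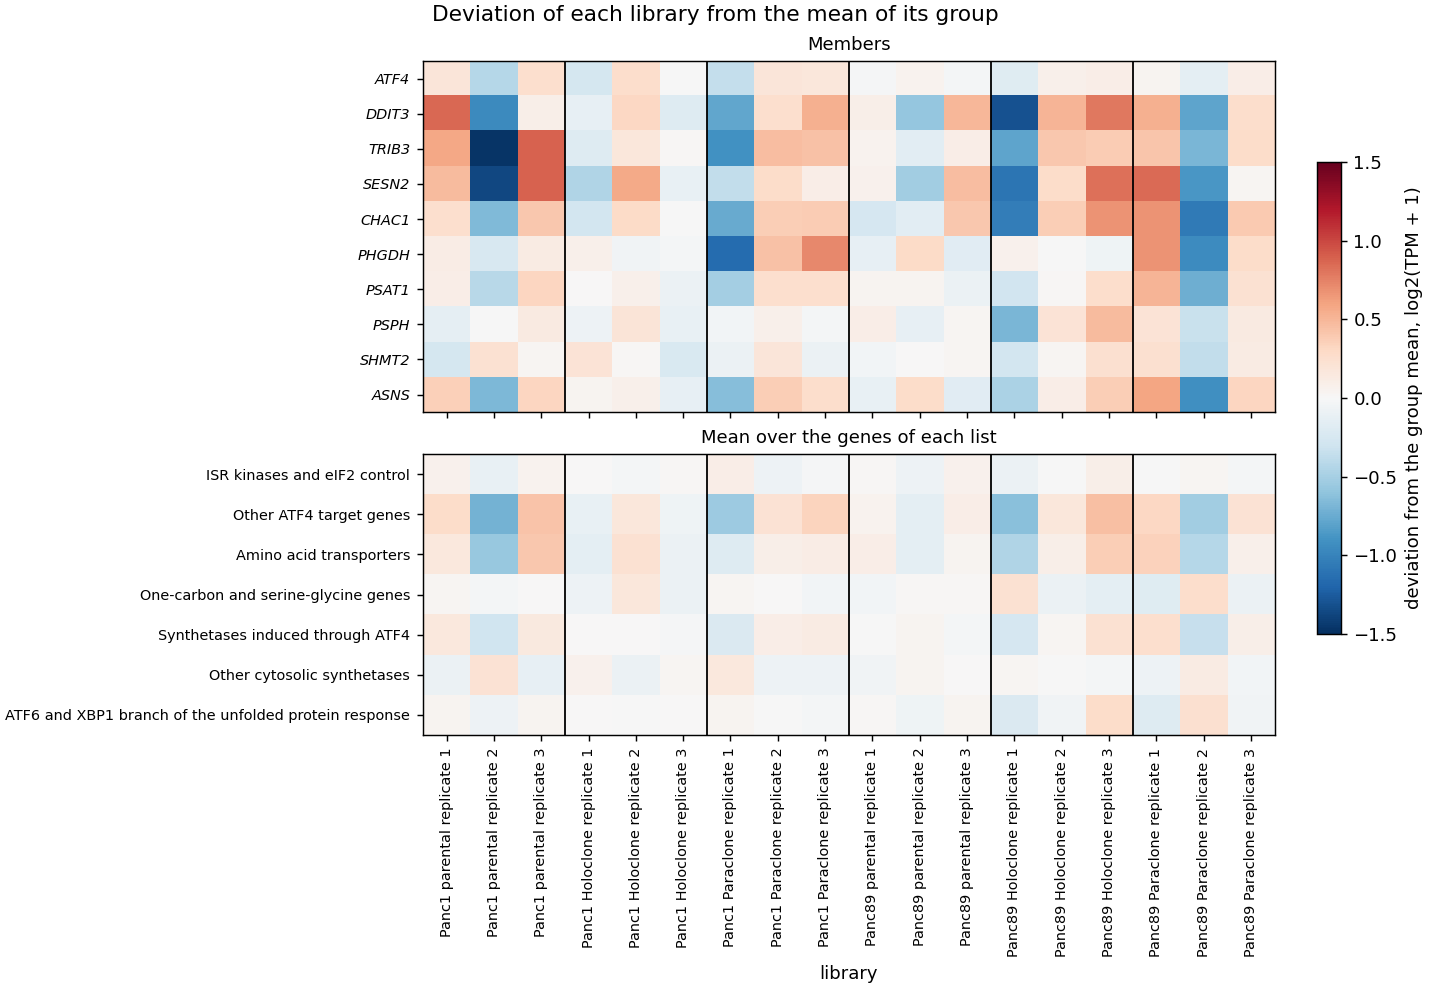
Deviation of each library from the mean of its group on the log2(TPM + 1) scale (color; red above, blue below), for the 10 genes (top) and as the mean over each gene list (bottom), with black lines between groups. Blue columns in parental Panc1 replicate 2, Panc1 Paraclone replicate 1, Panc89 Holoclone replicate 1 and Panc89 Paraclone replicate 2 run through the stress genes, other ATF4 targets, transporters and ATF4-induced synthetases.

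These 4 libraries also differed from their replicates in other respects. Each had the lowest mean correlation with the other replicates of its group over all genes (0.962 to 0.980) and the lowest share of TPM from mitochondrially encoded genes in its group (5.74%, 6.63%, 5.62% and 7.66%). The part of these library properties in the low values was not tested. The least correlated libraries of the other groups were replicate 2 of Panc1 Holoclone and of parental Panc89 cells, in the first of which 8 members were the highest of the 3 instead.

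Deviations of the members were positively related for all 45 pairs of genes, with correlations from 0.02 to 0.97 and a median of 0.74 over the 18 libraries. This is a description, since deviations within a group of 3 sum to 0 and the same few libraries enter every pair.

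Aminoacyl-tRNA synthetases, which charge tRNAs with their amino acids, gave a comparison within 1 enzyme family. Of the 12 cytosolic synthetases listed as induced through ATF4, 12, 11, 11 and 12 were at their lowest in these 4 libraries. Of the 8 other cytosolic synthetases, 1, 1, 3 and 2 were. The mean deviations were -0.30, -0.22, -0.26 and -0.34 for the former and 0.21, 0.15, 0.03 and 0.12 for the latter.

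**Figure D4:**
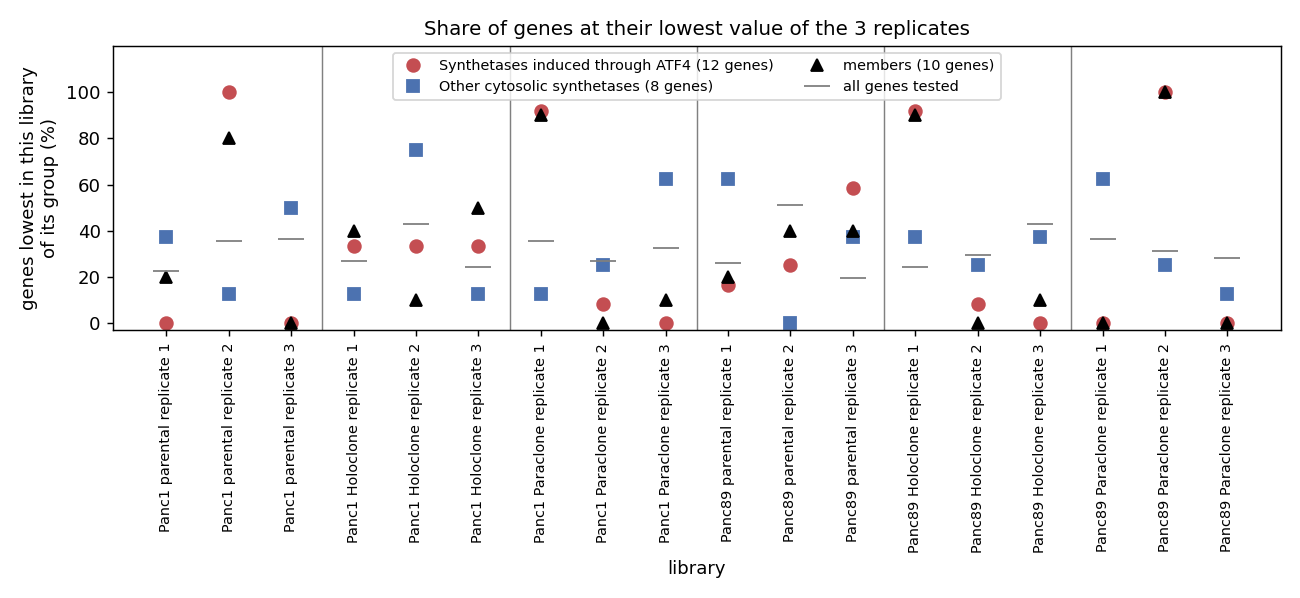
Percentage of genes (vertical axis) whose lowest value among the 3 replicates of a group fell in each library, for the 10 members, the ATF4-induced synthetases, the other cytosolic synthetases and all genes tested. In 4 libraries the first 2 sets stand at 80% or more while the other synthetases stand at 37.5% or less.

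Other targets of ATF4 moved in the same libraries. Of 16 such genes, 16, 13, 15 and 13 were lowest there, and of 10 amino acid transporters 10, 6, 10 and 10. Counts were lower for 19 genes of the ATF6 and XBP1 branches of the unfolded protein response (9, 9, 9 and 6), for 14 genes of the eIF2 kinases and their control (7, 5, 5 and 7) and for 18 one-carbon and glycine genes (8, 8, 5 and 5).

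The least correlated library of each group was also left out, a choice made after the data were seen and based on all genes. Then 9 members were higher in Panc89 Holoclone than Paraclone cells (*DDIT3* being the one not called). Of all genes, 52.2% were called in either direction. In Panc1, 5 were then higher, *ASNS* joining the 4, and *CHAC1* was lower (-0.80, limma, adjusted p = 0.00986). Of all genes, 50.4% were called in either direction there. Each group then held 2 libraries.

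The same lists were compared between the clones. Of all genes, 22.4% were called higher and 13.3% lower in Panc89 Holoclone cells, and 27.4% and 9.97% in Panc1 Holoclone cells. In Panc89, 11 of the 12 ATF4-induced synthetases were higher in Holoclone cells, none lower, with a median log2 fold change of 0.89; among them *AARS1* changed by 1.41 ± 0.20, *IARS1* by 1.20 ± 0.11 and *TARS1* by 1.08 ± 0.13. Only 2 of the 8 other cytosolic synthetases were higher, *KARS1* (0.96 ± 0.14) and *FARSB* (0.52 ± 0.16), with a median of 0.23. In Panc1, 4 of 12 and 2 of 8 were higher, near the share over all genes, with medians of 0.25 and -0.08 against 0.19. With upper quartile scaling none of the 12 remained called in Panc1 and 3 of the 8 were lower (medians 0.00 and -0.32), whereas in Panc89 11 of 12 and 2 of 8 were still higher.

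Amino acid transporters showed the largest list median in Panc89, at 1.60, with 8 of 10 higher in Holoclone cells. *SLC7A5* and *SLC3A2*, the light and heavy chains of the LAT1 exchanger for large neutral amino acids, changed by 2.32 ± 0.17 and 2.27 ± 0.25, and *SLC7A5* was at 2518 to 2854 TPM in Holoclone against 529 to 562 TPM in Paraclone libraries. *SLC1A4*, a carrier of serine and alanine, changed by 2.50 ± 0.45 in Panc89 and by 1.91 ± 0.45 in Panc1. In Panc1, 4 of 10 transporters were higher, beside 27.4% of all genes, with a median of 0.44. Upper quartile scaling lowered this median to 0.19 with 3 called.

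Of the 16 other ATF4 targets, 10 were higher and 1 lower in Panc89 Holoclone cells, with a median of 1.20. *GDF15*, a secreted stress cytokine, changed by 4.61 ± 0.66, from 7.05 to 45.8 TPM in Paraclone to 262 to 1041 TPM in Holoclone libraries. *GPT2*, the mitochondrial alanine aminotransferase, changed by 2.07 ± 0.25. In Panc1, 5 of 16 were higher and none lower (median 0.74), near the 27.4% of all genes called higher. They were led by the chromatin-associated stress protein gene *NUPR1* (2.56 ± 0.84) and the repressor gene *JDP2* (1.45 ± 0.20). With upper quartile scaling 2 were higher and 2 lower.

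The ATF6 and XBP1 branches raise chaperones of the endoplasmic reticulum. In Panc89, 10 of 19 of their genes were higher in Holoclone cells and none lower (median 0.63), with *HYOU1* at 1.74 ± 0.19 and *HSPA5*, the chaperone BiP, at 1.59 ± 0.40. In Panc1, 4 were lower, none was higher and 15 were not called (median -0.26), with *CRELD2* at -1.21 ± 0.30 and *XBP1* at -0.66 ± 0.18. The difference between the lines itself passed the test for 7 of the 19 genes (limma interaction term), all more positive in Panc89. Of all genes, 14.8% were called more positive there. Under both other scalings 10 and 9 genes were higher in Panc89 and 6 were lower in Panc1. With the least correlated library of each group left out, 17 were higher in Panc89, while in Panc1 2 were higher and 5 lower with a median of -0.03.

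Upstream, 2 of 14 genes of the eIF2 kinases and their control were higher in Panc89 Holoclone cells, beside 22.4% of all genes: *EIF2AK3*, the kinase PERK (0.98 ± 0.14), and *EIF2S2* (0.49 ± 0.15). In Panc1, 5 of 14 were higher, beside 27.4% of all genes, among them *EIF2B2* (0.94 ± 0.16) and *EIF2S1* (0.70 ± 0.15). Downstream of serine, 3 of 18 one-carbon and glycine genes were higher and 1 lower in Panc89 Holoclone cells, including *CBS*, which joins serine to homocysteine (1.18 ± 0.30), and *MTHFD2*, the mitochondrial folate enzyme (0.90 ± 0.26). In Panc1, 4 were higher and 1 lower, led by *ALDH1L2* (1.87 ± 0.36). These counts are near the shares called over all genes. With upper quartile scaling the eIF2 genes turned to 1 higher and 2 lower in Panc89 and 3 higher and 1 lower in Panc1.

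Between the parental lines, where 27.5% of all genes were called higher and 38.5% lower, these lists were mixed. Some of their counts lay near those shares. Few transporters, other ATF4 targets and genes of the ATF6 and XBP1 branches were called lower. Of 18 one-carbon and glycine genes, 3 were higher and 7 lower in parental Panc89, where *ALDH1L2* was at -3.01 ± 0.36 and *CTH*, which makes cysteine, at 2.29 ± 0.47. Of 16 other ATF4 targets, 5 were higher and 2 lower, *ATF5* being at -2.52 ± 0.21. Of 10 transporters, 3 were higher and 1 lower, with *SLC7A5* at 2.08 ± 0.17, and of 12 ATF4-induced synthetases 2 were higher and 3 lower, with *CARS1* at -1.93 ± 0.18. The other lists gave 3 higher and 3 lower of 8 synthetases, 2 higher and 5 lower of 14 eIF2 genes, and 4 higher and 1 lower of 19 genes of the ATF6 and XBP1 branches. With median-of-ratios scaling the eIF2 genes turned to 7 higher and 3 lower, and both synthetase lists to 3 higher and 1 lower.

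Among the 6 paralogs of the members, *SHMT1*, *CHAC2*, *SESN1*, *SESN3*, *TRIB1* and *TRIB2*, 2 were higher in Panc89 Holoclone than Paraclone cells and none lower. In Panc1, 1 was lower and none higher. Of all genes, 22.4% were called higher in Panc89 and 9.97% lower in Panc1, so counts among 6 genes say little. *SESN3* had a group mean of 4.83 TPM in Panc89 Holoclone cells and stayed at 0.23 TPM or less in all Panc1 groups. *TRIB2* had means of 4.54, 14.2 and 16.5 TPM in Panc1 Holoclone, Paraclone and parental cells, an order unlike that of *TRIB3*.

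Among all genes, those whose levels were most like that of a member were sought over the 18 libraries after centering each line. For *PSAT1* they were *GPT2* (r = 0.97), *ASNS* (0.97) and the glycyl-tRNA synthetase gene *GARS1* (0.96), and for *ASNS* they were *GARS1* (0.97), *PSAT1* (0.97) and *SARS1* (0.96). *CHAC1* was most like *WIPI1* (0.95), *VEGFA* (0.95) and *SLC1A5* (0.94). *PHGDH* stood apart from these, with *THNSL2* (0.92), *RAB3GAP1* (0.90) and *FCGRT* (0.87). The points share libraries and groups, so these values describe likeness only.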

How the data were processed

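RNA from 18 cultures was sequenced by the authors as stranded poly(A) libraries (NovaSeq, paired ends). Per the study's methods and the submitters' processing notes, transcripts were quantified with kallisto 0.46.1 on Ensembl GRCh38 transcripts and summed to scaled TPM for each gene. What was deposited is log2(TPM + 1), and these log2 values were tested here without conversion. Depth is unknown, since no counts were given, so no counting error could be computed, and pseudogene reads may be shared. Whether strand was used in quantification is not given in the sources used here.

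Symbols were matched exactly. The 16093 genes reaching 1 TPM in 3 or more libraries were fitted with limma 3.58.1 (R 4.3.3): 6 group means over all 18 libraries, with moderated variances following the mean level, and Benjamini-Hochberg adjustment over all genes. The fit was checked on simulated data. Beside the members, paralogs and markers, named genes of a list were taken from its 3 called genes of largest change in a comparison, with no overlap between groups and a mean of 10 TPM or more in the higher one. Similarity used Pearson's r after centering each line. Promoter windows came from RefSeq GRCh38.p14, positions from GENCODE 44.

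Alternatives were a pseudocount of 0.1, no filter, upper quartile and median-of-ratios scaling, only the groups compared, stricter thresholds, a replicate block and leaving out libraries. The members and lists were chosen with earlier results of these data known.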

Additional observations from a re-analysis of the deposited data

Results flagged for a closer look

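The difference between Holoclone and Paraclone cells was not the same in both lines for 3 members, by the interaction term of the limma fit over all genes. *CHAC1* differed by 2.12 on the log2 scale (adjusted p = 0.0259): the Holoclone cells were higher in Panc89 (1.84) and the difference in Panc1 was -0.28 and not called. *PSAT1* differed by 1.48 (adjusted p = 0.00870), from 0.42 in Panc1 to 1.89 in Panc89. *SHMT2* differed by 1.08 (adjusted p = 0.00334), from -0.28 to 0.80. The 3 Panc89 Paraclone libraries include replicate 2, in which all 10 members were lowest, and the differences without it were 1.59, 1.11 and 0.89 in the same order; *CHAC1* was then no longer called (adjusted p = 0.0585).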

How the results depend on the processing

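The members called numbered 3 between the parental lines, 4 and 7 between the clones of Panc1 and Panc89, 3 for the difference between the lines, and 0, 2, 2 and 1 for Panc1 Holoclone, Panc1 Paraclone, Panc89 Holoclone and Panc89 Paraclone against parental cells. Of 126 such counts under all alternatives, 83 stayed within 1.5 times, 35 were lower and 8 higher; causes were not tested. Upper quartile and median-of-ratios scaling both gave 1 in Panc1 and 0 for either Panc89 clone against parental cells. An adjusted p under 0.01 left 1 for the Panc1 clones, 1 for Panc1 Paraclone and 0 for both Panc89 clones against parental cells. A log2 change over 1 left 1, 0 and 0 for those last 3. Only the compared groups in the fit gave 3 between the Panc89 clones, 1 for Panc1 Paraclone and 0 for Panc89 Paraclone against parental cells; no filter on low values gave 1 and 0 for the last 2. Leaving out the least correlated library of each group, chosen after seeing the data, gave 6 between the parental lines, 7 for the difference between the lines, 7 for Panc1 Paraclone, 8 for Panc89 Holoclone and 2 for Panc89 Paraclone against parental cells. The shares of all genes called were then 72.2%, 49.4%, 42.6%, 39.1% and 41.9%, in the same order.

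Leaving out 1 library at a time gave 3 to 5 between the parental lines, 1 to 4 in Panc1, 5 to 7 in Panc89, 2 to 4 for the difference between the lines, 0 for Panc1 Holoclone, 1 to 3 for Panc1 Paraclone, 0 to 4 for Panc89 Holoclone and 0 to 2 for Panc89 Paraclone against parental cells. Differences that changed sign were called neither before nor after. Between the parental lines these were *DDIT3* (0.044 and 0.13 under upper quartile and median-of-ratios scaling, -0.59 to 0.31 on leaving out libraries), *PHGDH* (0.047 and 0.13), *PSPH* (0.066 and 0.15) and *CHAC1* (-0.0053 without the least correlated libraries, -0.083 to 0.45 on leaving out single ones). *ATF4* between the Panc1 clones was at -0.089, -0.12 and -0.15 under both scalings and without the least correlated libraries, and at -0.019 to 0.29 on leaving out single ones. *DDIT3* between the Panc89 clones ranged from -0.070 to 0.98 and the *PHGDH* difference between the lines from -0.45 to 0.60.

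Replicate numbers are shared between groups, and the labels do not say whether they pair the samples. The deviations of same-numbered libraries of a line correlated at -0.32 to 0.19 over 18 pairs. Deviations in a group of 3 sum to 0, so these values cannot settle whether the samples were paired. With the replicate block the counts were 3, 4, 6, 3, 0, 1, 2 and 0 in the order above. Depth is unknown, and TPM shares reads with pseudogenes for *PSPH* and *ASNS*. With 3 passages of 1 clone per variant, differences between clones in general could not be estimated.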
